A study of Caenorhabditis elegans with 6 samples.

Results

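The mRNAs of 10 enzymes of the methionine cycle, the folate cycle and the transsulfuration route to cysteine were followed in C. elegans after feeding RNAi against let-607, which encodes a CREBH-like transcription factor. The genes are metr-1, mtrr-1 and ahcy-1 of the methionine cycle, mthf-1, mel-32 and dao-3 of the folate cycle, and cbs-1, cbs-2, cth-1 and cth-2 of transsulfuration. They were chosen by gene symbol, as known enzymes of these pathways, at a time when earlier results of these data were known. All 10 were found among the 46778 genes of the table and among the 15453 genes tested. Whole wild-type N2 worms at the L4 larval stage were compared in 2 groups, 3 libraries labelled let-607 RNAi and 3 control RNAi libraries. The first came from worms fed HT115 bacteria making let-607 double-stranded RNA, diluted with control bacteria. The control worms were fed HT115 bacteria with the empty vector L4440. All populations were started as synchronized L1 larvae and kept at 20 °C, so that both groups share strain, stage, temperature and bacterial host. RNAi by feeding acts on a whole population of worms, and each library holds the RNA of all tissues. A lower value in such a sample can mean fewer cells of a type or less RNA per cell, and the 2 cannot be told apart.

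These pathways pass single carbon units and sulfur between amino acids. In the methionine cycle, methionine is made into S-adenosylmethionine (SAM), the methyl donor for phosphatidylcholine, histones and many other molecules, and the leftover homocysteine is methylated back to methionine with a carbon from the folate cycle and vitamin B12 as cofactor. Homocysteine can also leave the cycle through cystathionine, which gives cysteine and from it glutathione, taurine and hydrogen sulfide. In worms a shortage of vitamin B12 slows both methionine synthase and propionate breakdown, and nuclear hormone receptors adjust the genes around them.

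Expression is given as FPKM, the fragments mapped to a gene scaled to its length in kilobases and to the mapped fragments of the library, as deposited for each gene and library. The values summed to 1400487 to 1485099 FPKM per library, and FPKM do not keep the number of fragments, so the depth behind each value is unknown. Because the measure is per length, levels of different genes can be set side by side. Changes are log2 fold changes of libraries labelled let-607 RNAi over control RNAi libraries, from limma on log2(FPKM + 0.1), with p-values adjusted over all genes tested by the Benjamini-Hochberg method. A gene is said to have risen or fallen at an adjusted p under 0.1, and to have passed where its change also exceeded 1 on the log2 scale in either direction. The labels do not say whether the libraries of a group came from separate cultures, so the p-values measure the spread between these libraries, which may be technical. The mRNA targeted by the RNAi was read in every library. let-607 mRNA (WBGene00002783) was at 71.0, 76.2 and 77.9 FPKM in libraries labelled let-607 RNAi, against 69.1, 57.1 and 57.3 FPKM in control libraries. It was higher, not lower, in every library labelled let-607 RNAi (log2 fold change 0.30, limma adjusted p = 0.034), and the group is named by its label throughout. The deposited FPKM also carry a general shift, with a median log2 fold change of 0.12 over all genes tested.

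All 10 enzyme mRNAs averaged less in libraries labelled let-607 RNAi than in control ones. By adjusted p, 9 of the 10 fell and none rose, where 11.4% of all genes tested fell and 31.7% rose. Among the 11260 genes averaging 5 FPKM or more, as all 10 did, 1646 (14.6%) fell and 4362 rose. Of the 10, 1 passed as lower, cth-1, and none as higher, where 1.4% and 3.75% of all genes tested did. For all 10 genes the groups did not overlap, with every library labelled let-607 RNAi below every control library, which held for 13.4% of all genes tested, with 49.1% not overlapping in either direction. The median log2 fold change of the 10 was -0.37, beside 0.12 for all genes tested, and -0.35 without cth-1. The 9 enzymes other than cth-1 spanned -0.60 to -0.09. Summed over the 10 genes, expression was 1995, 1991 and 2021 FPKM in libraries labelled let-607 RNAi, against 2918, 3029.98 and 2934 FPKM in control libraries. This sum was 0.141% ± 0.00265 of all FPKM in libraries labelled let-607 RNAi and 0.202% ± 0.00451 in control libraries (SD, n = 3 each). ahcy-1 alone made up 54.3% of it in libraries labelled let-607 RNAi and 55.7% in control libraries, so the sum follows that gene more than any other.

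**Figure D1:**
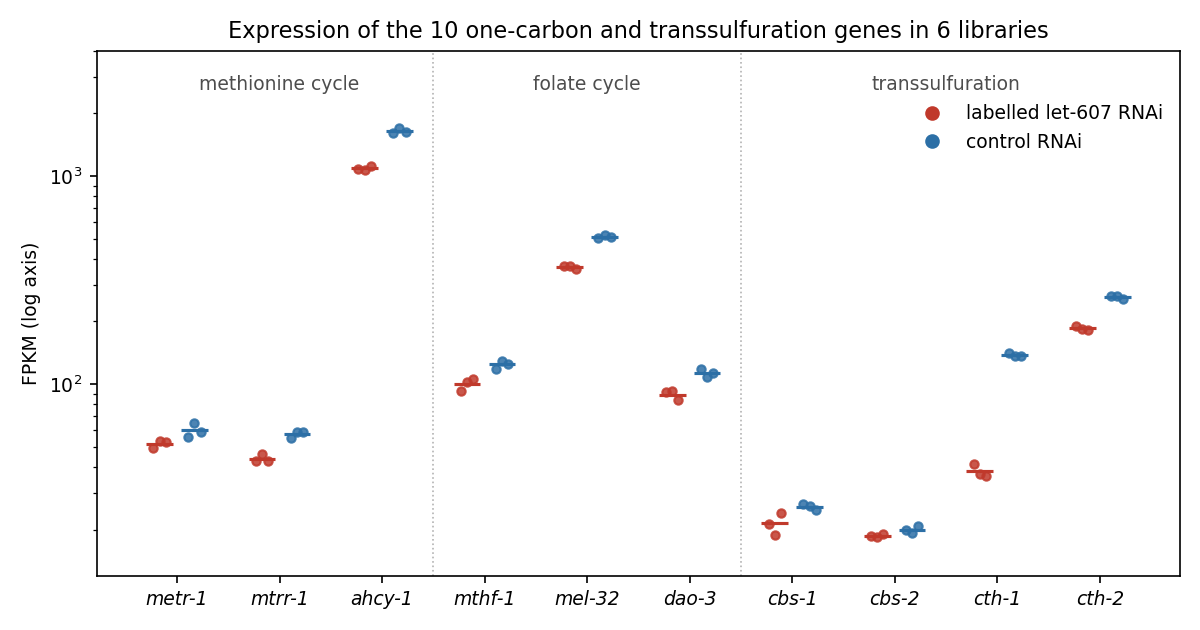
FPKM on a log axis for each of the 10 genes, grouped by pathway, with 1 point per library and a bar at the mean of each group of 3 libraries. For every gene the libraries labelled let-607 RNAi (red, left) lie below the control RNAi libraries (blue, right), with the widest gap on this axis for cth-1, at a mean of 38.1 FPKM labelled let-607 RNAi and 138 FPKM in control libraries.

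In the methionine cycle, ahcy-1 fell the most. It encodes S-adenosylhomocysteine hydrolase, which clears the by-product of SAM-dependent methylation and yields homocysteine. ahcy-1 (WBGene00019322, WBcel235 chromosome I, 6836469 to 6838140, plus strand, 3 exons) was at 1077, 1069 and 1117 FPKM in libraries labelled let-607 RNAi, against 1614, 1703 and 1635 FPKM in control libraries. The groups lay well apart, and within each the libraries were close together. The mean was 1088 ± 25.5 FPKM labelled let-607 RNAi and 1650.5 ± 46.3 FPKM in control libraries (SD, n = 3 each), which makes a log2 fold change of -0.60 (SE 0.034, limma adjusted p = 7.24e-05), or -0.73 beside the median of all genes. With a mean above that of 98.8% of the genes tested, it was the most abundant mRNA of the 10 in both groups.

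metr-1 and mtrr-1 act together, and both fell. metr-1 encodes methionine synthase, the vitamin B12-dependent enzyme that turns homocysteine into methionine. metr-1 (WBGene00010988, chromosome II, 10926561 to 10931078, plus strand, 9 exons) was at 49.4, 53.4 and 52.4 FPKM in libraries labelled let-607 RNAi, against 55.6, 64.9 and 59.0 FPKM in control libraries. The second control library was the highest, and the gap between the groups, 53.4 to 55.6 FPKM, was narrow. The mean was 51.8 ± 2.08 FPKM labelled let-607 RNAi and 59.8 ± 4.68 FPKM in control libraries (SD, n = 3 each), which makes a log2 fold change of -0.21 (SE 0.067, limma adjusted p = 0.0538). Without the second control library it was -0.15 with an adjusted p of 0.119 from limma, and the call was likewise lost, at adjusted p of 0.111 to 0.147, without the first or the third library labelled let-607 RNAi or without the third control library. mtrr-1 encodes methionine synthase reductase, which restores the B12 cofactor of METR-1 after it has been oxidized. mtrr-1 (WBGene00006510, chromosome II, 9285975 to 9289132, plus strand, 11 exons in the longest coding transcript) was at 42.8, 46.2 and 42.5 FPKM in libraries labelled let-607 RNAi, against 55.3, 59.1 and 58.7 FPKM in control libraries. Every library labelled let-607 RNAi was clearly below the lowest control library. The log2 fold change was -0.40 (SE 0.053, limma adjusted p = 0.00197). The level of metr-1 relative to mtrr-1 was 1.15, 1.16 and 1.23 in libraries labelled let-607 RNAi, and 1.00, 1.10 and 1.01 in control libraries. These ratios did not overlap between the groups. How often ratios of other gene pairs do so was not examined, here or for the ratios below. Of single genes tested, 49.1% did not overlap.

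The folate cycle genes had log2 fold changes between -0.48 and -0.31, and all 3 fell. mel-32 encodes serine hydroxymethyltransferase, which takes a carbon from serine and loads it onto tetrahydrofolate. mel-32 (WBGene00003214, chromosome III, 6440145 to 6443000, minus strand, 4 coding transcripts) was at 370.2, 369.95 and 359 FPKM in libraries labelled let-607 RNAi, against 504, 519.75 and 506 FPKM in control libraries. Within each group the libraries differed by little, with an SD of 1.8% of the mean labelled let-607 RNAi and 1.68% in control libraries. This was a log2 fold change of -0.48 (SE 0.031, limma adjusted p = 0.000115), from a mean of 366 ± 6.58 FPKM labelled let-607 RNAi and 509.96 ± 8.59 FPKM in control libraries (SD, n = 3 each).

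mthf-1 encodes methylenetetrahydrofolate reductase, the enzyme that commits the carbon to methionine synthesis. mthf-1 (WBGene00015512, chromosome II, 7773904 to 7777823, minus strand, 3 coding transcripts) was at 92.8, 102 and 106 FPKM in libraries labelled let-607 RNAi, against 118, 129.65 and 125 FPKM in control libraries. The first library labelled let-607 RNAi was the lowest, and the groups stayed apart. Its log2 fold change came to -0.31 (SE 0.062, limma adjusted p = 0.00962). dao-3 encodes an enzyme of the methylenetetrahydrofolate dehydrogenase family, which interconverts other one-carbon forms of folate. dao-3 (WBGene00000929, chromosome X, 8084210 to 8086550, minus strand, 5 exons) was at 91.6, 92.1 and 83.4 FPKM in libraries labelled let-607 RNAi, against 118.6, 108 and 113 FPKM in control libraries. Here the third library labelled let-607 RNAi and the second control library were the lowest of their groups. For dao-3 this made -0.35 on the log2 scale (SE 0.057, limma adjusted p = 0.00457). mel-32 expression was 3.67 ± 0.303 times that of mthf-1 in libraries labelled let-607 RNAi and 4.11 ± 0.135 times in control libraries (SD, n = 3 each), and the highest ratio labelled let-607 RNAi, 3.99, lay just under the lowest control ratio, 4.01.

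The transsulfuration genes showed both the deepest and the shallowest changes of the 10. cth-1 and cth-2 both encode cystathionine gamma-lyase, which splits cystathionine to release cysteine. The annotation gives both a longest protein of the same number of residues, from 3 exons each. cth-1 (WBGene00009048, chromosome V, 16100680 to 16102750, plus strand) was at 41.1, 37.0 and 36.2 FPKM in libraries labelled let-607 RNAi, against 141, 137 and 136 FPKM in control libraries. No other enzyme of the 10 had its groups so far apart in fold. The mean was 38.1 ± 2.64 FPKM labelled let-607 RNAi and 138 ± 2.74 FPKM in control libraries (SD, n = 3 each), so that 0.275 of the control level was left. The log2 fold change was -1.86 (SE 0.057, limma adjusted p = 6.26e-06), or -1.98 beside the median of all genes, and 1.08% of the genes tested had a change as low or lower. cth-2 (WBGene00022856, chromosome II, 7056184 to 7057960, minus strand) was at 189.6, 184 and 183 FPKM in libraries labelled let-607 RNAi, against 264, 264 and 255 FPKM in control libraries. It fell by less than its paralog, with a log2 fold change of -0.49 (SE 0.034, 95% interval -0.58 to -0.41, limma adjusted p = 0.000143).

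The makeup of cystathionine gamma-lyase mRNA differed between the groups. cth-1 made up 17.8%, 16.8% and 16.5% of the sum of cth-1 and cth-2 in libraries labelled let-607 RNAi, against 34.9%, 34.2% and 34.8% in control libraries. The shares were far apart, although an exact permutation test of 3 against 3 libraries cannot give a p below 0.1. The sum itself was 223 ± 6.42 FPKM in libraries labelled let-607 RNAi and 399 ± 7.12 FPKM in control libraries (SD, n = 3 each). How reads that match both copies were assigned is not given in the sources used here, and the likeness of the transcripts was not examined.

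cbs-1 and cbs-2 encode cystathionine beta-synthase, which joins homocysteine and serine in the first step of transsulfuration. Both were low beside the other enzymes. cbs-1 (WBGene00013866, chromosome X, 10054275 to 10057528, plus strand) was at 21.3, 18.9 and 24.1 FPKM in libraries labelled let-607 RNAi, against 26.6, 25.9 and 24.9 FPKM in control libraries. Its groups nearly touched, and the libraries labelled let-607 RNAi spread more (SD 12% of the mean) than for any other of the 10 genes in either group. On the log2 scale the change was -0.27 (SE 0.0915, limma adjusted p = 0.0599). This call was lost, at adjusted p of 0.116 to 0.146, when any library other than the third labelled let-607 RNAi was left out. cbs-2 (WBGene00018783, chromosome II, 2220396 to 2223567, minus strand) was at 18.7, 18.4 and 19.02 FPKM in libraries labelled let-607 RNAi, against 19.8, 19.2 and 20.9 FPKM in control libraries. These values did not overlap but differed by little, a log2 fold change of -0.09 (95% interval -0.22 to 0.04, limma adjusted p = 0.242). cbs-1 made up 53.2% ± 2.61 of the sum of cbs-1 and cbs-2 in libraries labelled let-607 RNAi and 56.4% ± 1.70 in control libraries (SD, n = 3 each), and these shares overlapped between the groups.

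**Figure D2:**
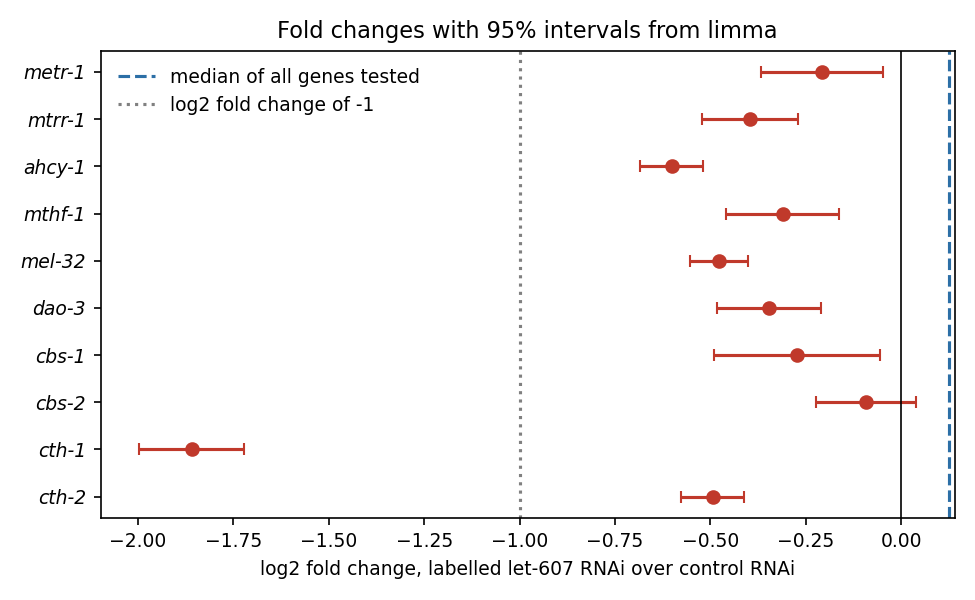
log2 fold change (labelled let-607 RNAi over control RNAi) of the 10 genes with 95% intervals from limma, beside the median of all genes tested at 0.12 (dashed) and a log2 fold change of -1 (dotted). The interval of cth-1, which ends at -1.72, lies below those of the other 9 genes, and the interval of cbs-2 alone includes 0.

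Of the 10 genes, 3 overlap a neighbour in the annotation. mthf-1 shares 11 exonic bases with C06A8.6, cth-2 shares 8 with ZK1127.3 and cbs-2 shares 30 with the noncoding RNA gene F54A3.10, each on the opposite strand. F54A3.10 was listed at 0 in all 6 libraries. C06A8.6 was at 64.1 to 71.3 FPKM in libraries labelled let-607 RNAi and 53.7 to 58.6 FPKM in control libraries. ZK1127.3 was at 36.3 to 41.9 FPKM labelled let-607 RNAi and 32.9 to 35.7 FPKM in control libraries, so that neither was lower where its partner was. The other 7 enzymes overlap no annotated gene, and none of the 10 shared its 6 values with another gene of the table.

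The order of the levels was almost the same in both groups. In the libraries labelled let-607 RNAi it ran from ahcy-1 through mel-32, cth-2, mthf-1, dao-3, metr-1, mtrr-1, cth-1 and cbs-1 down to cbs-2, with only cbs-1 and cbs-2 overlapping in their ranges. In control libraries cth-1 had rank 4, above mthf-1 and dao-3, and the neighbours whose ranges overlapped were mthf-1 with dao-3 and metr-1 with mtrr-1. cth-1 had rank 8 in libraries labelled let-607 RNAi, and no other gene changed its place relative to the rest. The genes with the pattern most like that of cth-1, by Pearson correlation of log2 values over the 6 libraries among 11259 other genes averaging 5 FPKM or more, were T05C3.6, pud-1.2, which has a close copy in the genome, and cah-5 (r = 0.999 for each). Their own changes differed in size, at -1.13, -4.93 and -0.54 on the log2 scale. With 2 groups of 3 libraries such a correlation is set largely by the difference between the groups, and 156 genes had r above 0.99.

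The size of all these changes depended on the scaling between libraries. The median of all genes tested was 0.12 on the log2 scale in the deposited FPKM, 0.17 after rescaling to TPM, 0.0051 after median-of-ratios scaling and -0.025 after quantile normalization. None of the 10 genes changed direction. After median-of-ratios scaling all 10 fell at an adjusted p under 0.1, including cbs-2 (log2 fold change -0.21, limma adjusted p = 0.0254), and 19.3% of all genes tested fell too. After rescaling to TPM, 7 of the 10 fell, without metr-1 (-0.16, adjusted p = 0.111), cbs-1 (-0.22, adjusted p = 0.117) and cbs-2 (-0.04, adjusted p = 0.576), beside 8.89% of all genes tested. cth-1 passed under each of these scalings, between -1.98 and -1.81.

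**Figure D3:**
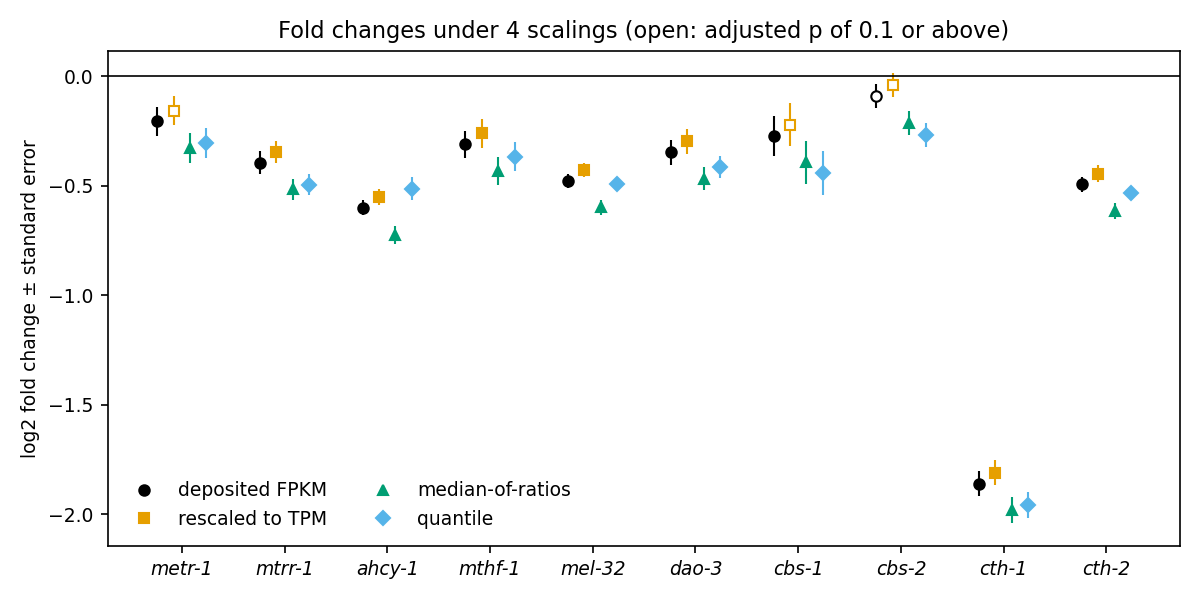
log2 fold change with its standard error for each of the 10 genes under 4 scalings of the libraries, with filled symbols for an adjusted p under 0.1 and open symbols otherwise. All values lie below 0, and the open symbols are metr-1, cbs-1 and cbs-2 after rescaling to TPM and cbs-2 in the deposited FPKM.

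The genes on either side of these enzymes were read from 4 lists, whose counts stand beside the shares of all genes tested given above, 11.4% lower and 31.7% higher. Those shares were 8.89% and 38.1% after rescaling to TPM, 19.3% and 18.9% after median-of-ratios scaling and 18.9% and 16.6% after quantile normalization. SAM synthesis and phosphatidylcholine methylation, the step between methionine and ahcy-1, gave 2 lower and 1 higher of 6 genes tested by adjusted p, and none passed. The number higher was 3 after rescaling to TPM. It was also 3 without the first library labelled let-607 RNAi, where 27.3% of all genes tested rose. sams-1, a SAM synthetase gene, was at 285, 294 and 322 FPKM in libraries labelled let-607 RNAi, against 455, 564 and 483 FPKM in control libraries (log2 fold change -0.73, limma adjusted p = 0.00123). pmt-2, a methyltransferase gene of phosphatidylcholine synthesis, had a log2 fold change of -0.53 (limma adjusted p = 0.00061). sams-5, named like sams-3 and sams-4 after its values were seen, rose by 0.42 (limma adjusted p = 0.00116), and did so under each scaling (0.30 to 0.47). sams-3 and sams-4, which are close copies of each other and may share reads, were at 0.097 and 0.12 in the deposited FPKM with no call. They were called higher after rescaling to TPM (0.15 and 0.17, limma adjusted p = 0.0504 and 0.0456) and lay just below 0 after median-of-ratios scaling (-0.025 and -0.00074), again with no call. The level of ahcy-1 was 3.78, 3.64 and 3.47 times that of sams-1 in libraries labelled let-607 RNAi and 3.55, 3.02 and 3.38 times in control libraries, which overlap. Relative to metr-1 it was 21.0 ± 0.924 times as high in libraries labelled let-607 RNAi and 27.7 ± 1.39 times in control libraries (SD, n = 3 each), without overlap.

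Of 11 further folate and glycine cleavage genes tested, 7 fell and 1 rose by adjusted p, with a median log2 fold change of -0.39. After rescaling to TPM 6 fell and 2 rose, and 9 fell and 1 rose both after median-of-ratios scaling (median -0.51) and after quantile normalization (median -0.45). In the deposited FPKM the gene that passed was folt-2, which encodes a folate transporter of the reduced folate carrier family. folt-2 was at 42.6, 42.4 and 41.0 FPKM in libraries labelled let-607 RNAi, against 129.6, 134 and 128 FPKM in control libraries. The change was of the same order as that of cth-1, a log2 fold change of -1.64 (SE 0.041, limma adjusted p = 3e-06). The genes of the glycine cleavage system, which feeds carbon from glycine into the folate pool, were grouped and named after their values were seen. Of its 5 genes on the list, gcsh-1 (-0.95), gcst-1 (-0.58), gcsh-2 (-0.57) and gldc-1 (-0.39) fell. gcsh-1 also passed after median-of-ratios scaling (-1.07), after quantile normalization (-1.065), without the first library labelled let-607 RNAi (-1.004) and without the third control library (-1.015), so that 2 genes of the list passed there. In these fits, in the same order, 266, 290, 225 and 203 of all genes tested passed as lower. dld-1 fell by less (-0.09, limma adjusted p = 0.0654), and its call was lost after rescaling to TPM (-0.04, limma adjusted p = 0.42). Its call was also lost without the second control library (limma adjusted p = 0.105). The same held without the first or the second library labelled let-607 RNAi (limma adjusted p = 0.124 and 0.139). dld-1 is shared with other dehydrogenase complexes. Also named after their values were seen, dhfr-1, the dihydrofolate reductase gene, rose (0.31, limma adjusted p = 0.0131), and tyms-1, the thymidylate synthase gene, had a log2 fold change of -0.15 with an adjusted p of 0.165 from limma.

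Of 15 vitamin B12 and propionate genes tested, 8 fell and 4 rose by adjusted p, and 2 passed as lower. Both belong to the B12-independent propionate shunt, a bypass that C. elegans uses when vitamin B12 is short. acdh-1, its acyl-CoA dehydrogenase gene, was at 264, 273 and 233 FPKM in libraries labelled let-607 RNAi, against 747, 822 and 780.1 FPKM in control libraries (log2 fold change -1.61, limma adjusted p = 2.19e-05). hphd-1, a dehydrogenase gene of the same bypass, was at 100.5, 104 and 104 FPKM in libraries labelled let-607 RNAi, against 227, 255 and 248 FPKM in control libraries (log2 fold change -1.24, limma adjusted p = 2.03e-05). After median-of-ratios scaling the counts were 9 lower and 1 higher, with 4 that passed as lower, the other two being nhr-114 (-1.12) and nhr-68 (-1.08). Without the first control library 4 passed too, and over the fits with 1 library left out 2 to 4 passed as lower and 2 to 4 rose. The number that rose was 2 without the first or the second library labelled let-607 RNAi and without the second or the third control library. Of all genes tested, 266 passed as lower after median-of-ratios scaling. With 1 library left out 198 to 225 of all genes passed as lower, and 23.7% to 30.0% rose. The 3 nuclear receptor genes of the list fell, and were named after their values were seen. nhr-114, known in worms as a regulator of methionine cycle genes when SAM is low, was at 42.2, 40.2 and 45.0 FPKM in libraries labelled let-607 RNAi, against 82.0, 88.2 and 83.6 FPKM in control libraries (log2 fold change -0.99, limma adjusted p = 6.93e-05). nhr-68 and nhr-10, which act on the propionate shunt, were at -0.95 and -0.31 on the log2 scale (limma adjusted p = 0.000298 and 0.0195). Apart from cblc-1, the genes of the B12-dependent propionate route and its cofactor lay nearer 0, between -0.14 for mmab-1 and 0.17 for mmaa-1. All of these, cblc-1 included, were also named after their values were seen. By adjusted p, mmaa-1, mmcm-1 (0.14) and pccb-1 (0.11) rose in the deposited FPKM (limma adjusted p = 0.0781, 0.0309 and 0.086), and none of these 3 was called after median-of-ratios scaling or quantile normalization. mce-1, pcca-1 and pccb-1 were above 0 in the deposited FPKM and below it after median-of-ratios scaling. cblc-1, whose product handles vitamin B12 inside the cell, rose by 0.60 (limma adjusted p = 0.0136), and remained called under the 3 other scalings (0.48 to 0.65).

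The genes that act on cysteine gave a mixed picture that moved with the scaling. Of 18 cysteine, sulfide and glutathione genes tested, 1 fell and 8 rose by adjusted p, where 11.4% of all genes fell and 31.7% rose. None passed, and the median log2 fold change was 0.066, below that of all genes tested. After median-of-ratios scaling the counts were 5 lower and 6 higher, where 19.3% of all genes fell and 18.9% rose. ethe-1, a sulfur dioxygenase gene of sulfide breakdown, was at 8.57, 7.44 and 6.69 FPKM in libraries labelled let-607 RNAi, against 4.26, 5.27 and 3.51 FPKM in control libraries (log2 fold change 0.80, limma adjusted p = 0.0118). cysl-2, a cysteine synthase family gene, was at 125, 135 and 149.9 FPKM in libraries labelled let-607 RNAi, against 74.1, 84.3 and 79.3 FPKM in control libraries (log2 fold change 0.78, limma adjusted p = 0.000627). Both kept their direction and their call under the 3 other scalings. Named after their values were seen, suox-1, the sulfite oxidase gene, was the 1 that fell (-0.49, limma adjusted p = 0.000481), and gcs-1 and gss-1, which make glutathione from cysteine, had log2 fold changes of 0.057 and 0.074 with limma adjusted p of 0.313 and 0.244 and were below 0, also uncalled, after median-of-ratios scaling and quantile normalization.

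**Figure D4:**
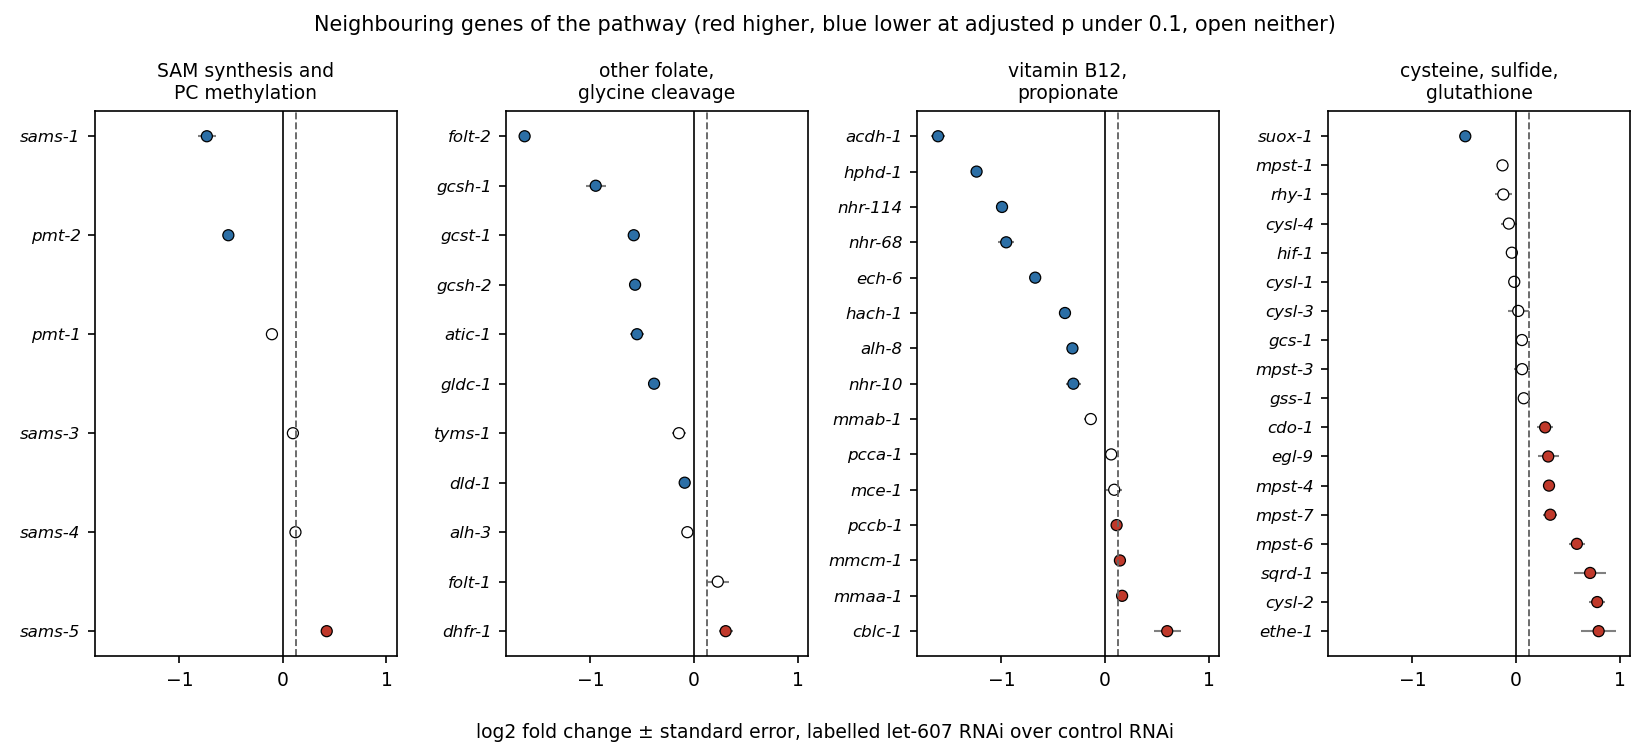
log2 fold change with its standard error (labelled let-607 RNAi over control RNAi) for the tested genes of the 4 neighbouring lists, red for higher and blue for lower at an adjusted p under 0.1 and open for neither, with the median of all genes at 0.12 dashed. folt-2 at -1.64, acdh-1 at -1.61 and hphd-1 at -1.24 are the lowest points, and the list of cysteine and sulfide genes holds 8 of the higher genes.

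Markers of tissues and of developmental stage were read beside these changes. Their counts stand beside 11.4% of all genes tested that fell and 31.7% that rose, or 19.3% and 18.9% after median-of-ratios scaling. The 5 intestinal markers found summed to 1856 to 2029 FPKM in libraries labelled let-607 RNAi and 1883 to 1925 FPKM in control libraries, with 1 of 5 higher, vha-6, and none lower by adjusted p. Their sums overlapped between the groups, but after median-of-ratios scaling 3 of the 5 were lower and 1 higher. The sperm markers were higher in 6 of 8 genes, and their sum was 2476 to 2587 FPKM in libraries labelled let-607 RNAi, against 1484 to 1725 FPKM in control libraries. Those higher were msp-3, msp-10, msp-19, gsp-3, gsp-4 and spe-11, while spe-9 and fer-1 were not called. msp-19 alone averaged 1214 FPKM labelled let-607 RNAi and 728 FPKM in control libraries. Whether the like-named msp or gsp genes share reads was not examined. Of the hypodermal markers 5 of 6 were higher, with sums of 782 to 877 FPKM labelled let-607 RNAi and 606 to 755 FPKM in control libraries. Of the neuronal markers 4 of 6 were higher, with 347 to 355 FPKM labelled let-607 RNAi and 253 to 267 FPKM in control libraries. The body wall muscle markers, 2 of 5 of them higher, summed to 3261 to 3373 FPKM labelled let-607 RNAi and 2994 to 3168 FPKM in control libraries. The germline markers, 2 of 6 higher and glh-1 lower, summed to 952 to 1030 FPKM labelled let-607 RNAi and 926 to 962 FPKM in control libraries. The markers of oocytes and adults were higher in 4 of 7 genes. These were rme-2 (log2 fold change 0.69), oma-1 (0.46), oma-2 (0.645) and puf-5 (1.08), each without overlap between the groups. Of them only puf-5 passed in the deposited FPKM, and none did after median-of-ratios scaling. vit-2, vit-6 and col-19 overlapped and were not called. The sums of all 7 overlapped, at 167 to 218 FPKM in libraries labelled let-607 RNAi and 107 to 257 FPKM in control libraries. In each group the first library had the highest sum. No marker was at 0 in all libraries. After median-of-ratios scaling 6 of 8 sperm, 4 of 7 oocyte and adult, 3 of 6 hypodermal and 2 of 6 neuronal markers were still higher. The muscle markers were then higher in 0 and lower in 2 of 5. The part of stage and tissue makeup in the lower enzyme levels was not tested. Without the first control library, 8 of the 10 enzymes fell by adjusted p, beside 10.8% of all genes tested, and cbs-1 and cbs-2 were not called.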

How the data were processed

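The authors sequenced stranded mRNA libraries from L4 worms and deposited FPKM per gene and library, rounded to 2 decimals. The paper's methods name TopHat and the Cufflinks tools, while the submitters' processing notes name fastp, HISAT and RSEM. Which of them made the values is not given in the sources used here. The genome was WBcel235, the build of the Ensembl release 115 annotation used for positions and names. A broken line was dropped and 1418 repeated lines were used once. Authors' FPKM hold no counts, so the depth is unknown. In 118 genes at 0 in some libraries and at similar values in the rest, the typical value above 0 differed by at most 1.12-fold between libraries. Because similar values were required of these genes, this cannot show that the libraries had like depths. Genes averaging 0.5 FPKM or more were fitted with limma 3.58.1 (R 4.3.3, eBayes with trend, no covariates, pseudocount 0.1), and the method was tested on simulated data. Python 3.11.15, pandas 2.3.3 and numpy 2.4.6 were used otherwise. The 10 genes, the lists and the tests were chosen with earlier results of these data known. By rule, the genes named from each other list are those that passed, at most 4, otherwise the 2 of largest change, and the 3 genes most correlated with the enzyme of largest change were named too. Further list genes were named after their values were seen, as said beside them, and markers are named from their lists. Of the 110 list symbols 5 were not matched. Alternatives were pseudocounts of 1 and 0.01, other filters, scalings, variance priors, a replicate block, leaving out each library and an adjusted p under 0.05. No sequences were used here.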

Additional observations from a re-analysis of the deposited data

How the results depend on the processing

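Over 17 alternatives the 10 enzymes kept their direction in all 170 values. Of these, 157 stayed on the same side of an adjusted p of 0.1, 11 lost the call (metr-1 and cbs-1 after rescaling to TPM and with single libraries left out) and 2 gained it (cbs-2 after median-of-ratios scaling and quantile normalization). The log2 fold change of cth-1 lay between -1.98 and -1.81. The median of the 10 was -0.49 after median-of-ratios scaling and -0.47 after quantile normalization. With 1 library left out it was -0.40 to -0.36, and 7 to 8 of the 10 had an adjusted p under 0.1, beside 9.05% to 10.8% of all genes tested that fell. Among genes averaging 5 FPKM or more, 275 passed as higher and 124 as lower, against 579 and 216 of all genes tested. Fewer genes were tested there, 11260 against 15453, and the share that passed as lower was 1.1% against 1.4%. By adjusted p alone 4892 rose and 1759 fell, against 2913 and 2985 after median-of-ratios scaling and 2559 and 2918 after quantile normalization, which remove the general shift. Over all genes tested, same-numbered libraries showed little joint deviation, with correlations of -0.058, 0.0028 and -0.018. No library correlated best with the library of its own number in the other group. Because these correlations are taken over all genes, they cannot show whether the numbers pair the libraries. Picked after their values were seen, vit-2, vit-6 and col-19 were highest in the first library of both groups. The markers rme-2, oma-1, oma-2 and puf-5 were not. With the replicate block 9 of the 10 enzymes had an adjusted p under 0.1, as without it, and 586 genes passed as higher and 218 as lower. With an adjusted p under 0.05, 7 of the 10 fell, beside 8.92% of all genes tested. Depth could not be read from FPKM, so no counting error was set beside any value.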
